A study of Homo sapiens with 15 samples.

Results

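The genes described here encode the proteins of the cytosolic ribosome. They were chosen by name: an approved symbol made of RPL or RPS and digits, with or without a final A, X or L, or one of RPLP0, RPLP1, RPLP2 and RPSA. The rule found 81 of the 20468 genes in each table, of which 32 are named for the small subunit and 49 for the large subunit. The symbols of 2 of them, RPS15A and RPS23, were printed in lower case and were matched regardless of case. Pseudogenes, whose symbols carry a P before the last digits, do not match the rule.

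Cells of MM.1S and RPMI8226, established lines from human multiple myeloma (MM), a cancer of plasma cells, were sequenced as bulk RNA in 3 conditions. MONO cells grew alone, TSW cells sat in the upper chamber of a transwell whose lower chamber held HS5 bone marrow stromal cells, and CO cells shared the lower chamber with the HS5 cells. MM.1S had 3 libraries per condition and RPMI8226 had 2, which makes 15, and the labels number them as repeats without saying whether the cultures were separate. The methods sorted cells positive for the plasma cell protein CD38 and negative for the stromal protein CD90 before RNA was taken, and HS5 is itself 1 stromal line, so that the coculture models contact with those cells only.

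A ribosome has a small subunit, which reads the messenger RNA, and a large subunit, which joins amino acids, and each is built from ribosomal RNA and many proteins that are needed in near equal amounts. Most of the protein genes begin transcription at a C followed by a run of C and T, the terminal oligopyrimidine (TOP) motif, through which their translation follows growth signals. Most of the genes also have processed pseudogenes in the human genome, so that a short read from them may match several places, and plasma cells, which secrete large amounts of antibody, depend on a high capacity for translation.

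The deposited values are log2 of RPKM + 1, and RPKM divides a gene's pair-end tags by the length of its gene model and by the size of the library. RPKM thus allows genes of different length to be compared, and all levels below are RPKM unless log2 is named. The tags per library were 9008977, 19050772 and 13265498 in MM.1S MONO, 14260729, 15206212 and 13126692 in TSW, and 16101366, 15342283 and 13825779 in CO. In RPMI8226 they were 12479855 and 14806319 in MONO, 18538305 and 17929481 in TSW, and 16316717 and 18790792 in CO. Genes were tested with limma where their mean RPKM over the line was at least 1, which left 79 of the 81 genes in each line beside all others, 10153 genes for MM.1S and 10319 for RPMI8226. A gene is said to have risen or fallen where the p-value adjusted over all genes tested was under 0.05, and to be called where its fold change was also over 1.5. Such p-values measure the spread between these libraries only, and in bulk RNA fewer cells of a type and less RNA per cell cannot be told apart.

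The ribosomal protein genes were among the most abundant of the cells. Their median RPKM, each gene averaged over the line, was 449.6 in MM.1S and 347 in RPMI8226, beside 10.9 and 10.4 for all genes tested. In MM.1S 66 of the 81 genes reached an RPKM of 100, and 39 of them were among the 100 most abundant genes. In RPMI8226 64 reached 100, with 32 among the 100 most abundant. Small subunit genes had a median of 601 in MM.1S and 364 in RPMI8226, and large subunit genes had 436 and 336. The proteins of the mitochondrial ribosome are encoded by 76 other nuclear genes, whose medians were 43.97 and 34.03.

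The order of the genes was much the same in both lines, with a Spearman correlation of 0.948 across the 81 genes. That value is a description, since the points share the libraries and their reference. The most abundant in MM.1S were RPL8, a large subunit protein near the catalytic center (2717), and RPL37A of the large subunit (2398). In RPMI8226 they were RPLP1 of the stalk (2347), RPL11, which binds the 5S RNA (2259), and RPL8 (1631). At the other end RPS10 averaged 11.4 in MM.1S and 9.69 in RPMI8226, RPL21 10.7 and 10.3, and RPL36A 1.76 and 1.40. RefSeq also lists readthrough genes over RPS10, RPL17 and RPL36A, and how tags that overlap both genes were counted is not given, so these levels are uncertain.

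RPL3L, a muscle paralog of RPL3, and RPL10L, a testis paralog of RPL10, were under the filter. RPL3L had 2 tags or fewer in every library and a mean RPKM of 0.0289 in MM.1S and 0.0207 in RPMI8226. A library without a tag on it allows up to 3 tags, which corresponds to an RPKM between 0.102 and 0.216. RPL10L had 7 tags in MM.1S MONO 2, 4 and 3 in the RPMI8226 TSW libraries, and 1 or 0 in every other library.

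The genes shared the TOP motif more often than other genes did. RefSeq start windows on GRCh38, from 20 bases before the annotated start to 10 bases after it, were searched for a C within 5 bases of the start that is followed by at least 4 bases that are C or T. Of the 81 genes 64 had 1 start or more in the RefSeq table, with 79 start windows in all. The pattern was in 57 of these windows (72.2%), against 7351 of 35037 windows of all other genes (21.0%) and 17 of 84 windows of mitochondrial ribosomal protein genes (20.2%). By gene, 53 of the 64 had it at a start, and the 11 without it were RPL6, RPL9, RPL10L, RPL15, RPL17, RPL27, RPS4X, RPS15, RPS26, RPS27L and RPS29. A match is a description of the letters and not a measured start. The windows of 4 genes that recur below are shown, with capitals for the matched C and the run of C and T after it. RPS27 lies at chr1:153990742-153990771 on the plus strand, RPS28 at chr19:8321476-8321505 on the plus strand, RPS6 at chr9:19380227-19380256 on the minus strand and RPLP1 at chr15:69452798-69452827 on the plus strand.
RPS27: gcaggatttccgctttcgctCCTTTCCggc
RPS28: ggctctccccgaagcacgtgaCTCCTCTCC
RPS6: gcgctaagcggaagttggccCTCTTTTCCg
RPLP1: gctgcgtataggcgcgagagCCCCTTTCCT

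The share of a library's tags that fell on the 81 genes shows how far the whole group moved. In MM.1S it was 6.45%, 4.40% and 4.51% in MONO, 4.77%, 4.29% and 4.14% in TSW, and 3.71%, 4.55% and 4.30% in CO. In RPMI8226 it was 3.81% and 3.94% in MONO, 3.85% and 4.06% in TSW, and 3.52% and 3.61% in CO. The 95% Wilson intervals reach at most 0.0160 percentage points to either side and cover counting error only. MM.1S MONO 1 lay above every other library, and the other 8 MM.1S libraries overlapped across conditions. The MM.1S means were 5.12% ± 1.15 (SD, n = 3) in MONO, 4.40% ± 0.330 (SD, n = 3) in TSW and 4.19% ± 0.431 (SD, n = 3) in CO. In RPMI8226 the means were 3.87% ± 0.0867 (SD, n = 2) in MONO, 3.95% ± 0.148 (SD, n = 2) in TSW and 3.56% ± 0.0670 (SD, n = 2) in CO, and both CO values were below the 4 others.

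**Figure D1:**
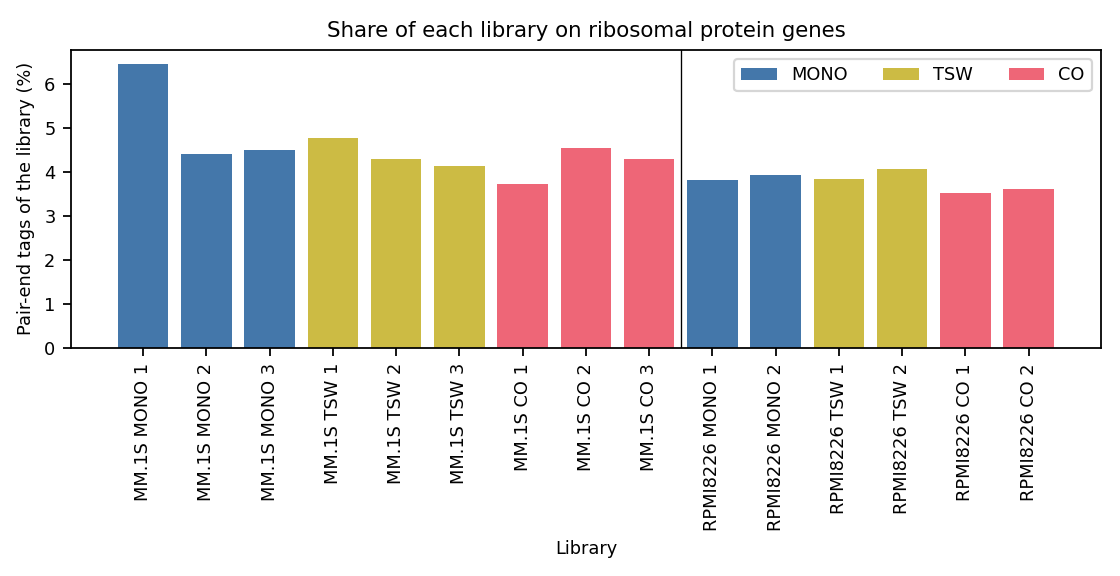
Percent of each library's pair-end tags on the 81 ribosomal protein genes, 1 bar per library, colored by condition, with MM.1S left of the line and RPMI8226 right of it. MM.1S MONO 1 stands at 6.45% and the other 14 bars lie between 3.52% and 4.77%.

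Several libraries stood apart over these genes, and they are described before the comparisons that rest on them. MM.1S MONO 1 was above the other 8 libraries of its line for 73 of the 79 genes tested and below them for 0, where 27.7% and 33.6% of all genes tested were. The deviations of all genes in MONO 1 also had a Spearman correlation of -0.506 with gene length and 0.395 with GC content. MM.1S CO 1 was lowest of its line for 48 of the 79 genes, where 17.7% of all genes tested were, with correlations of 0.400 and -0.486. Such trends were not limited to these libraries: MM.1S CO 3 had 0.314 with length and -0.445 with GC content, MM.1S TSW 3 had 0.209 and -0.391, MM.1S MONO 2 had 0.333 with GC content and RPMI8226 TSW 2 had 0.428. Each correlation runs across the genes of 1 library. After a loess correction for GC content and length, the median log2 fold change of the 79 genes against MONO in MM.1S went from -0.18 to -0.10 in TSW and from -0.27 to -0.10 in CO.

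MM.1S MONO 2 and both RPMI8226 TSW libraries differed from their lines in another way, with some ribosomal protein genes far down and others far up. In MONO 2 14 of the 79 genes were below and 3 were above all other MM.1S libraries, against 8.88% and 15.6% of all genes tested. In RPMI8226 20 of the 79 genes had both TSW values below the 4 other libraries and 30 had both above them, against 10.3% and 11.7% of all genes. MONO 2 and TSW are different conditions in different lines, yet the genes that deviated were largely shared, as the next values show.

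RPS27 (gene 6232, GRCh38 chr1:153990762-153992155), a small subunit protein with a zinc finger, had in MM.1S 301, 40.98 and 207 in MONO, 203, 166 and 171 in TSW, and 149, 201 and 136 in CO. Its RPMI8226 values were 122 and 137 in MONO, 44.9 and 41.6 in TSW, and 150.3 and 154 in CO. MONO 2 was the lowest MM.1S library by far, and the TSW pair was the lowest of RPMI8226. RPL41 (gene 6171, chr12:56116633-56117967), the shortest ribosomal protein, had in MM.1S 337, 67.5 and 225 in MONO, 225, 225 and 206 in TSW, and 160.4, 227 and 236 in CO. The RPMI8226 values of RPL41 were 155 and 147 in MONO, 42.03 and 40.7 in TSW, and 111 and 120.1 in CO. Here too MONO 2 and the TSW pair lay below all other libraries of their lines.

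RPL7, a large subunit protein, gave in MM.1S 204, 64.8 and 166 in MONO, 152, 143 and 145 in TSW, and 159.8, 157 and 149 in CO. Its levels in RPMI8226 were 117 and 107 in MONO, 42.9 and 44.4 in TSW, and 127 and 126 in CO. RPS3A, of the small subunit platform, had in RPMI8226 43.4 and 43.7 in MONO, 18.8 and 17.5 in TSW, and 35.6 and 30.8 in CO. In MM.1S its MONO 2 value was 35.7, and the other 8 ran from 62.1 to 128. Both genes thus repeat the low values of MONO 2 and of the TSW pair with no overlap. RPL22, a large subunit protein that also binds other RNAs, was 87.3 in MONO 2 and 130.1 to 201 in the other 8 MM.1S libraries. In RPMI8226 it was 126 and 122 in MONO, 88.6 and 78.8 in TSW, and 156 and 141 in CO, so that its TSW pair was again lowest.

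RPS28 (gene 6234, chr19:8321496-8323340), a small subunit protein close to the messenger RNA exit, went the other way. Its MM.1S levels were 125, 262 and 63.9 in MONO, 79.3, 72.1 and 69.999 in TSW, and 81.1, 72.3 and 88.2 in CO. In RPMI8226 RPS28 stood at 36.9 and 34.1 in MONO, 146 and 157 in TSW, and 41.7 and 35.8 in CO. MONO 2 was the highest of MM.1S, and both TSW values were more than 100 above the other RPMI8226 libraries. RPL21, a large subunit protein, was 20.8 in MONO 2 against 6.82 to 15.6 in the rest of MM.1S. Its RPMI8226 values were 8.17 and 10.8 in MONO, 14.9 and 16.4 in TSW, and 6.68 and 4.96 in CO.

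The deviation of a gene is its log2(RPKM + 1) in 1 library, or its mean over the TSW pair, minus the mean of the other libraries of the line. It was -2.16 for RPS27, -1.73 for RPL41, -1.28 for RPL7 and -1.18 for RPS3A in MM.1S MONO 2. In RPMI8226 TSW the same genes had -1.67, -1.65, -1.42 and -1.03. RPS28 had 1.70 and 1.999, and RPL21 had 1.09 and 0.99. Across the 79 genes the deviations of MONO 2 and of the TSW pair had a Pearson correlation of 0.937 and a Spearman correlation of 0.878. Against TSW 1 and TSW 2 alone Pearson's r was 0.891 and 0.943. The other 8 MM.1S libraries gave values between -0.649 and -0.173 for the same genes. The reference of each of those 8 includes MONO 2, which by itself pushes their values below 0, so they are no independent contrast. Over 9301 other genes tested in both lines the correlation of MONO 2 with the TSW pair was -0.0683, and over the 76 mitochondrial ribosomal protein genes it was 0.394. For MONO 1 and MONO 3 it was -0.188 and -0.412 over the other genes and -0.200 and -0.405 over the mitochondrial list. The MM.1S TSW libraries had 0.407, 0.423 and 0.243 over the other genes, and the CO libraries -0.039, 0.128 and 0.035. MONO 2 was thus the MONO library least unlike the TSW pair in these genes too. The points of each correlation share their libraries and reference, so these are descriptions. What set MONO 2 and the TSW pair apart was not tested, and in RPMI8226 it cannot be told apart from the TSW condition.

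**Figure D2:**
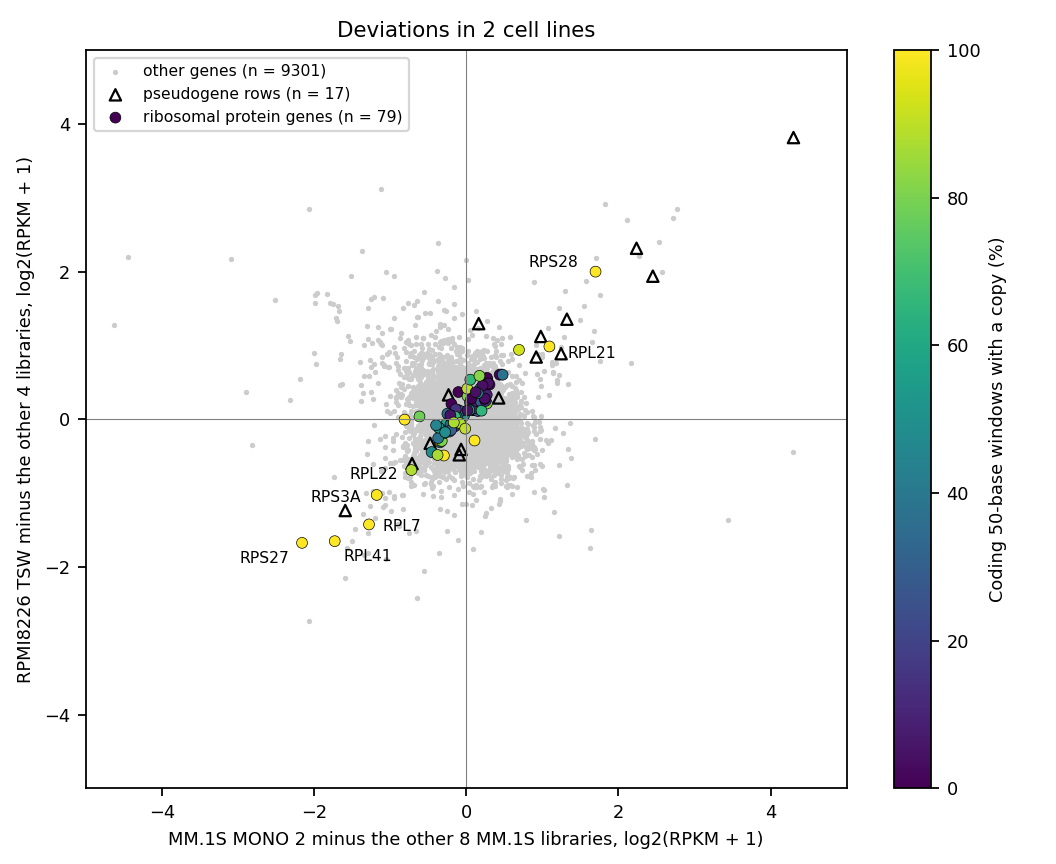
Deviation in MM.1S MONO 2 (horizontal) against deviation in RPMI8226 TSW (vertical), both in log2(RPKM + 1), for 79 ribosomal protein genes colored by the percent of their coding 50-base windows with a copy, 17 pseudogenes (triangles) and 9301 other genes (gray, 1 outside the axes). RPS27, RPL41 and RPL7 are low on both axes and RPS28 is high on both, while the other genes have a correlation of -0.0683. Over the same other genes MM.1S MONO 1 and MONO 3 had -0.188 and -0.412 with RPMI8226 TSW.

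**Figure D3:**
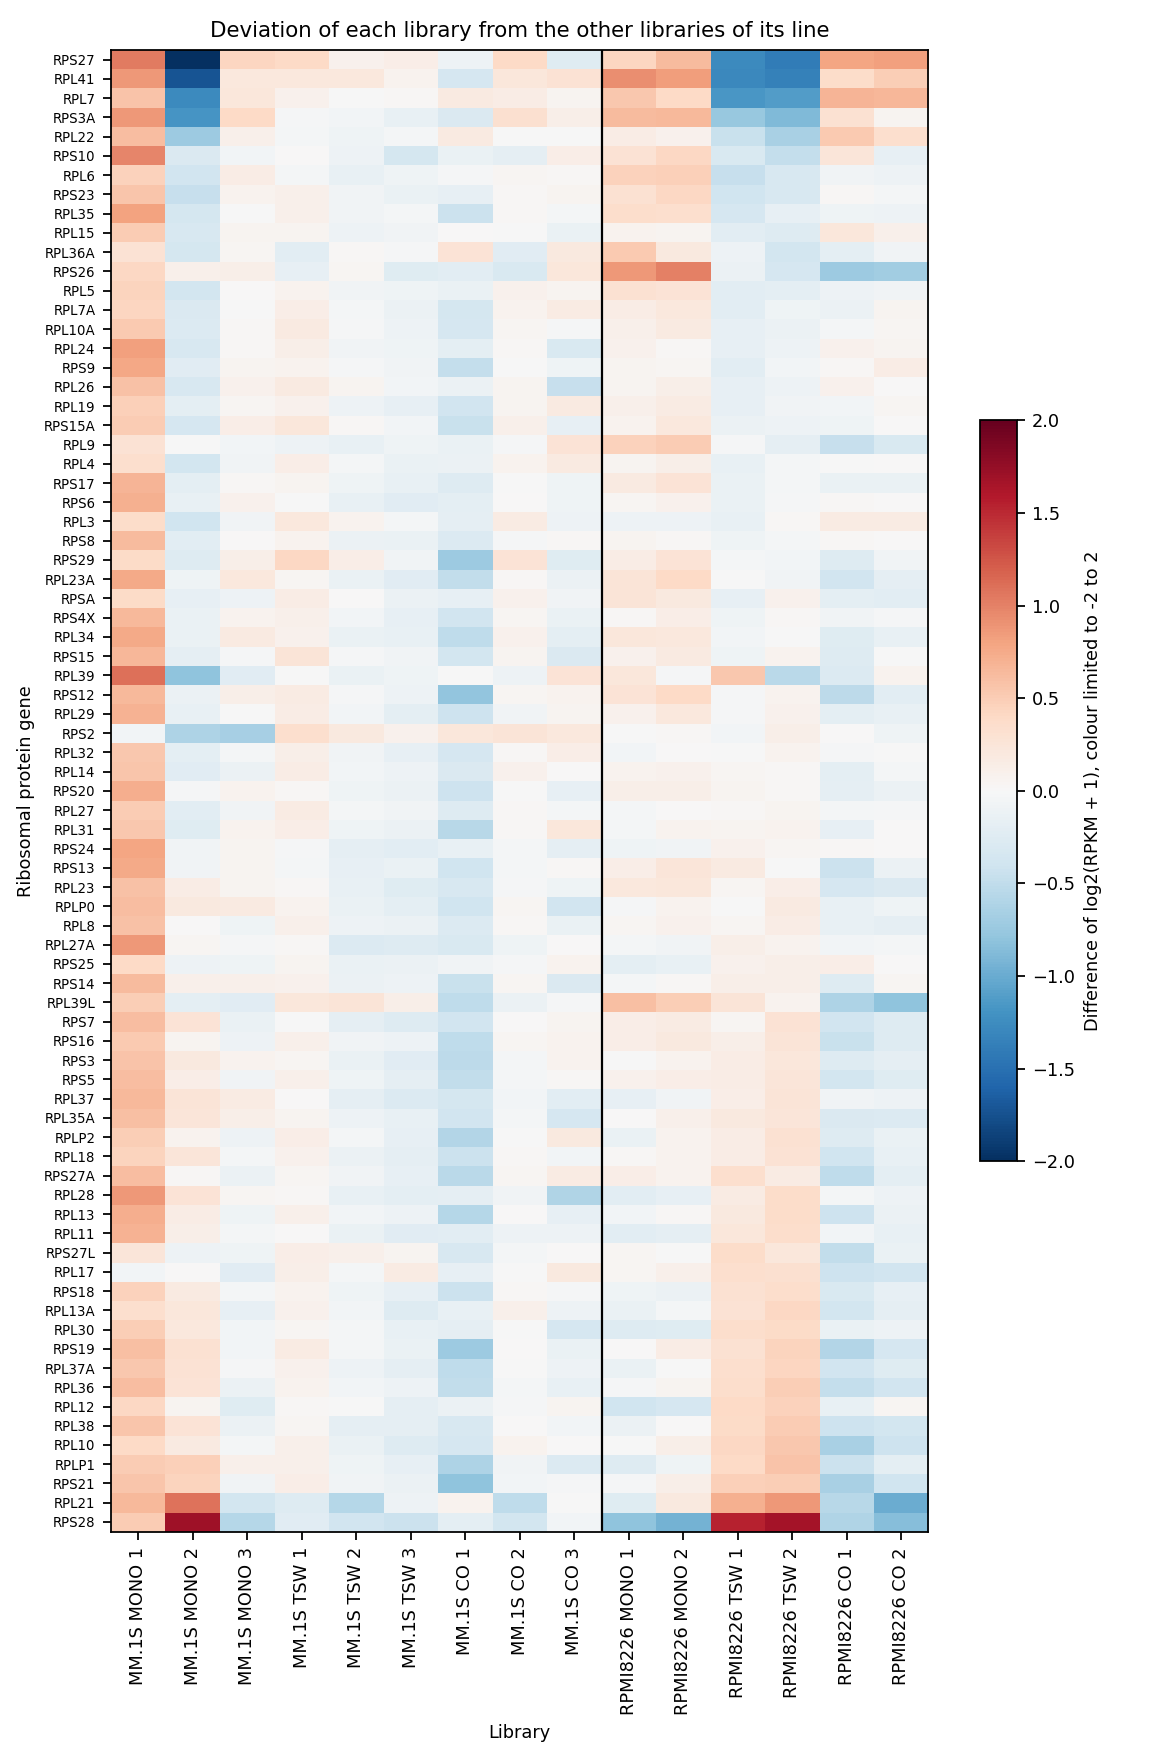
Deviation of each library (columns) from the other libraries of its line for 77 of the ribosomal protein genes (lines of the map, sorted by RPMI8226 TSW), in log2(RPKM + 1) with color limited to -2 to 2. MM.1S MONO 2 carries the gradient of the RPMI8226 TSW pair, and MM.1S MONO 1 is high for most of the genes.

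Copies elsewhere in the genome are a feature that the rule did not use. For each gene, every 50-base window of the coding sequence was looked up on both strands of GRCh38 outside the gene itself. The median gene had a copy of 48.3% of its windows, 37 of the 81 genes had at least 50%, and only 4 had none. With 75-base windows the median was 22.97%. All windows were copied for RPL21, RPL36A, RPL39, RPL41, RPS10, RPS26, RPS27 and RPS28, so the levels of these 8 genes are uncertain. Other genes were also largely copied, and their levels and changes are uncertain too. Among them were RPL7 (99.7%), RPS3A (98.9%), RPL22 (88.1%), RPSA (87.6%), RPL10 (82.1%), RPS27A (80.4%) and RPS2 (77.95%). The median was 0 for the mitochondrial ribosomal protein genes and 10.7% for a list of translation factors, which also holds BTF3, HNRNPA1, NACA, NAP1L1 and TPT1. Genes with more copied windows had lower levels, with Spearman correlations of -0.534 in MM.1S and -0.507 in RPMI8226 across the 81 genes. The size of the deviation was less related to copies, at 0.278 in MONO 2 and 0.142 in RPMI8226 TSW. Among the 21 tested genes with under 20% copied windows, MONO 2 and the TSW pair still had a Pearson correlation of 0.769, beside 0.939 in the 58 others.

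**Figure D4:**
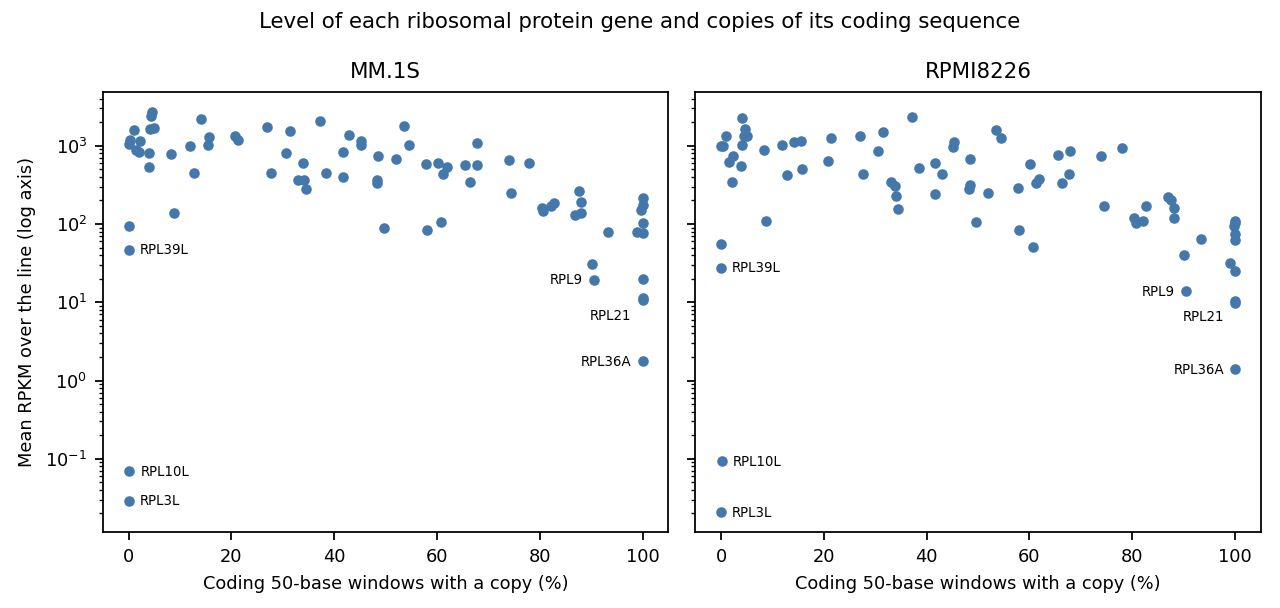
Mean RPKM over the line (log axis) against the percent of coding 50-base windows with a copy elsewhere in GRCh38, 1 point for each of the 81 ribosomal protein genes, in MM.1S and RPMI8226. Genes with many copied windows lie lower (Spearman -0.534 and -0.507), with RPL36A lowest among the fully copied, and the testis and muscle paralogs RPL10L and RPL3L lowest of all.

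The tables also hold 31 pseudogenes named after 19 of the genes, and some of them stood out in the same libraries. RPS14P3, a pseudogene of the small subunit gene RPS14, had in MM.1S 5.83, 84.2 and 3.51 in MONO, 2.43, 2.20 and 2.55 in TSW, and 2.74, 3.89 and 4.57 in CO. In RPMI8226 it had 4.78 and 6.37 in MONO, 94.8 and 93.6 in TSW, and 6.44 and 5.59 in CO. MONO 2 and the TSW pair were more than 10 times the other libraries of their lines. RPS14P3 took 7.84% of the tags of gene and pseudogene together in MONO 2 (95% Wilson interval 7.45 to 8.25), 8.42% in TSW 1 (8.02 to 8.84) and 8.28% in TSW 2 (7.88 to 8.71). It took between 0.247% and 0.766% in the other 12 libraries. RPS14 itself had 1466, 1056 and 1058 in MONO, 1044, 917 and 927 in TSW, and 752, 1010.1 and 824 in CO in MM.1S. In RPMI8226 RPS14 had 1006 and 1038 in MONO, 1098 and 1105 in TSW, and 889 and 1047 in CO. Neither MONO 2 nor the TSW pair was low. RPS14P3 had 1345 tags in MONO 2 beside 15807 on RPS14. A shift of tags of that size would not stand out among the MM.1S MONO values of RPS14, and it was not tested.

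RPL23P8, named after the large subunit gene RPL23, was 87.9 in MONO 2 and 64.7 and 67.8 in RPMI8226 TSW, against 8.79 to 24.2 elsewhere. RPL19P12 was 31.5, 31.2 and 34.9 in these libraries against 10.0 to 18.4, and RPL31P11 was 0.809, 0.727 and 0.430 against 2.47 to 6.91. Of the 18 pseudogenes tested in MM.1S, 7 were highest and 3 lowest in MONO 2, beside 15.6% and 8.88% of all genes, and 4 were highest and 2 lowest in MONO 1, beside 27.7% and 33.6%. Of the 17 in RPMI8226, 9 had both TSW values highest and 3 lowest, beside 11.7% and 10.3%. Over those 17 the correlation of MONO 2 with the TSW pair was 0.957.

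RPL13A, a large subunit protein also found in a complex that silences inflammatory messenger RNAs, had most of its family's tags on pseudogenes. RPL13AP5 held RPKM values from 701 to 2560 over the 15 libraries, against 136 to 307 for RPL13A itself. The pseudogenes took a median of 79.02% of the tags of this family, from 66.5% in RPMI8226 TSW 1 to 82.3% in MM.1S MONO 1. For RPS10 the share ran from 11.4% to 53.5%, for RPL21 from 20.5% to 49.6%, for RPS26 from 1.47% to 14.3% and for RPL23A from 4.82% to 12.8%. The lowest shares of RPL13A were those of the TSW pair and, within MM.1S, of MONO 2 at 72.6%.

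The closeness of gene and pseudogene is visible in 60 bases of coding sequence, shown for the pair with the largest shift. Sequences are from GRCh38, in the direction of the gene, and capitals mark the mismatches. RPS14 lies at chr5:150442635-150449739, and the RPS14P3 stretch at chr1:19608114-19608173 on the plus strand matches coding bases 1 to 60 with 2 mismatches. Over the whole coding sequence RPS14P3 was identical at 95.4% of 453 bases.
RPS14: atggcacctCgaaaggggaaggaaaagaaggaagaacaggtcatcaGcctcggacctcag
RPS14P3: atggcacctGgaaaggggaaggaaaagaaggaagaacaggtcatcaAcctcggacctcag

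TSW against MONO asks what the stroma does to MM cells without contact. In MM.1S limma called 0 of the 79 genes in this comparison, beside 10.6% of all genes tested. At the adjusted p alone 1 gene was lower and 1 was higher, beside 12.9% and 14.4% of all genes, and at an unadjusted p under 0.05 the counts were 7 and 1, beside 1945 and 2150 of all 10153 genes. Voom on the recovered tags also gave 1 lower and 1 higher. The share of ribosomal protein genes that passed was thus far under that of all genes. The median log2 fold change of the 79 was -0.18, beside 0.01 for all genes tested. Of the 79 changes 69 were below 0, and 52 after quantile normalization. Without MM.1S MONO 1 the median was 0.01, so that library decided its sign, and without MONO 2 it was -0.29 with 1 gene called. Leaving out MONO 3 gave 4 called and 8 lower.

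RPS2 (gene 6187, chr16:1962058-1964826), of the small subunit near the messenger RNA entry, was the gene that rose. RPS2 has 77.95% of its windows copied, so the increase is uncertain. Its MM.1S levels were 569, 404 and 391 in MONO, 729, 669 and 623 in TSW, and 680.1, 695 and 675 in CO. All 6 TSW and CO values lay above all 3 MONO values. The log2 fold change was 0.58 ± 0.146 (SE) in TSW, with an adjusted p of 0.0140, and 0.61 ± 0.146 (SE) in CO, with an adjusted p of 0.0107. RPL37, a zinc-binding protein of the large subunit, was the gene that fell. It had 658, 517 and 491 in MONO, 443, 396 and 374 in TSW, and 355, 426 and 387 in CO, with every TSW and CO value below every MONO value. Its log2 fold change was -0.45 ± 0.135 (SE) in TSW (adjusted p 0.0312) and -0.50 ± 0.135 (SE) in CO (adjusted p 0.0176). Neither TSW result held when single libraries were left out: the adjusted p of RPS2 was 0.0601 without TSW 1 and 0.0511 without TSW 2, and that of RPL37 was 0.103 without TSW 2, 0.121 without TSW 3 and 0.0515 without CO 3.

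CO against MONO adds contact with the stroma to its soluble factors. In MM.1S 4 of the 79 genes were called in this comparison, 3 down and 1 up, beside 11.8% of all genes. At the adjusted p alone 6 were lower and 1, RPS2, was higher, beside 15.0% and 16.2% of all genes. Voom gave 8 and 1. The median log2 fold change was -0.27, beside 0.01 for all genes, and was -0.04 after quantile normalization. It was -0.07 without MONO 1, where 1 gene was called, and -0.36 without MONO 2. Leaving out MONO 3 gave 11 called and 17 lower, and leaving out CO 2 gave 7 called. Of the 79 changes 69 were below 0, and 50 after quantile normalization. The 6 that fell were 12.8% of the 47 large subunit genes, under the 15.0% of all genes. In the small subunit 0 of 32 fell, but 29 changes were below 0. The median was -0.275 in the small subunit and -0.250 in the large, and whether the subunits differ was not tested. The CO libraries also held 39, 39 and 41 of 42 stromal markers above 0, beside 22, 27 and 23 in MONO, and the part of HS5 RNA in these changes was not tested.

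RPL28, of the large subunit, had 229, 158 and 137 in MONO, 135, 121 and 118 in TSW, and 119, 128 and 92.2 in CO. All CO values were below all MONO values, with -0.60 ± 0.179 (SE, adjusted p 0.0273). RPLP1 had 2816, 2759 and 2184 in MONO, 2193, 1953 and 1859 in TSW, and 1403, 1977 and 1745 in CO and fell by 0.60 ± 0.171 (SE, adjusted p 0.0223). RPLP0 fell by 0.52 ± 0.149 (SE, adjusted p 0.0238), and RPL35A by 0.51 ± 0.154 (SE, adjusted p 0.0293). RPL35A was chosen after its values were seen. Without CO 1, where limma found 0 genes lower, the adjusted p was 0.0878 for RPL35A, 0.0837 for RPLP0, 0.0764 for RPLP1, 0.0677 for RPL37 and 0.0602 for RPL28. The same genes missed the threshold without CO 3, with 0.114 for RPL28, 0.103 for RPL35A, 0.0951 for RPLP0, 0.0625 for RPLP1 and 0.0588 for RPL37. The adjusted p of RPLP1 was 0.0537 without MONO 2, and that of RPL35A was 0.0539 without MONO 1 and 0.0536 without TSW 2.

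CO against TSW separates contact from soluble factors, and it shares its libraries with the comparisons above. In MM.1S limma called 0 of the 79 genes, beside 0.414% of all genes tested. At the adjusted p alone 0 were lower and 0 higher, beside 0.0492% and 0.384%. With an unadjusted p under 0.05, 1 was lower and 0 were higher, beside 263 and 187 of all 10153 genes. Voom gave 0 and 0. The log2 fold changes ran from -0.37 to 0.14. Their median was -0.07, beside -0.00 for all genes, and turned to 0.02 after quantile normalization, with 55 of the 79 below 0 and 33 after that scaling.

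**Figure D5:**
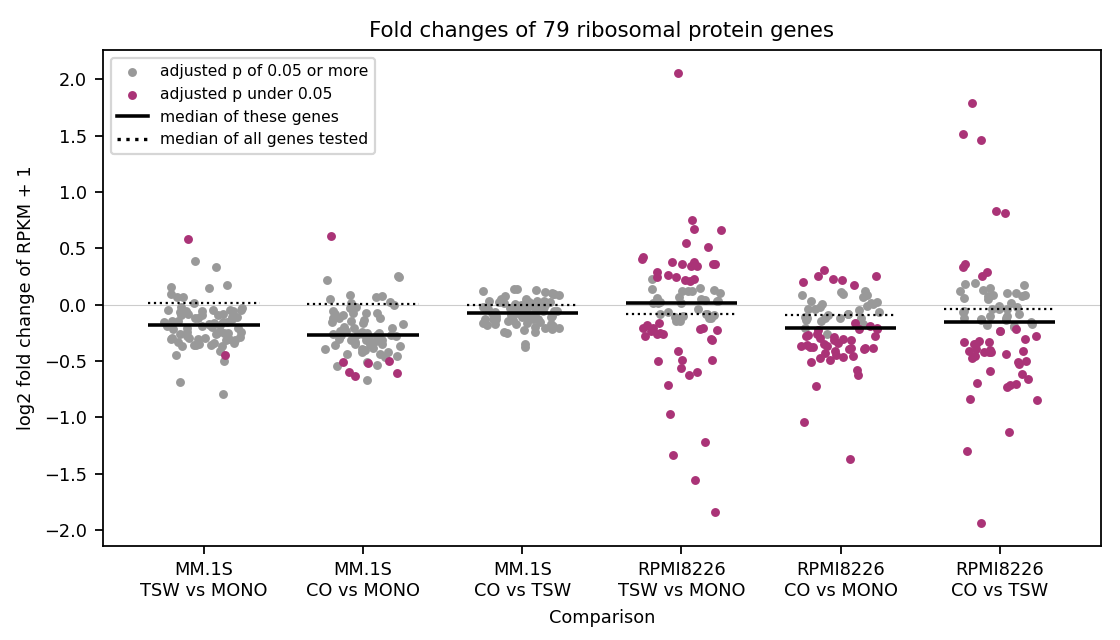
Log2 fold changes of 79 ribosomal protein genes in each comparison, 1 point per gene, purple at an adjusted p under 0.05, with the median of these genes (solid line) and of all genes tested (dotted line). In RPMI8226 TSW against MONO the points run from -1.84 to 2.06 around a median of 0.01, which turns to -0.13 after quantile normalization.

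In the RPMI8226 comparison of TSW with MONO limma called 12 of the 79 genes, 8 down and 4 up, beside 32.5% of all genes. At the adjusted p alone 27 were lower and 22 were higher, beside 38.0% and 29.0% of all genes, so the shares were near the background. The median was 0.01, beside -0.08 for all genes. The split changed with the scaling: median-of-ratios scaling gave 18 lower and 28 higher, quantile normalization gave 39 and 20 with a median of -0.13, and a loess correction for GC content and length gave 20 and 29. Without MONO 2 of RPMI8226 15 were lower. All 12 called genes were among the 58 with at least 20% copied windows, where 26 fell and 11 rose. In the 21 with fewer copies 1 fell and 11 rose, with a median of 0.23, and after quantile normalization 4 fell and 9 rose, again with a median above 0.

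RPS3A was chosen after its values were seen. The called genes were largely those whose values set the TSW pair apart. RPL41 fell by 1.84 ± 0.0694 (SE, log2, adjusted p 1.02e-08), RPS27 by 1.56 ± 0.0762 (SE, adjusted p 6.42e-08) and RPL7 by 1.34 ± 0.0685 (SE, adjusted p 8.77e-08). RPS3A followed at -1.22 ± 0.0845 (SE, adjusted p 7.25e-07). RPS28 rose by 2.06 ± 0.0865 (SE, adjusted p 2.29e-08) and RPL21 by 0.68 ± 0.143 (SE, adjusted p 0.00180). In each of these 6 genes both TSW values lay outside the range of the 4 MONO and CO values. MM.1S MONO 2, a library without stroma, deviated in the same genes, and both RPMI8226 TSW libraries carried the deviation, so that it and the TSW condition cannot be told apart.

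CO against MONO does not use the TSW libraries for its means, and here too the CO libraries held stromal markers, 39 and 39 of 42 above 0, whose part was not tested. In RPMI8226 it called 4 of the 79 genes, all down, beside 39.3% of all genes. At the adjusted p alone 40 were lower and 7 were higher, beside 41.7% and 30.3%. The median was -0.20, beside -0.09 for all genes. Over all genes the deviations of CO 1 and CO 2 had Spearman correlations of 0.238 and 0.249 with gene length and -0.303 and -0.246 with GC content. Median-of-ratios scaling gave 29 lower and 13 higher with a median of -0.09, the loess correction gave 21 lower and 18 higher with a median of -0.0028, and 41 were lower and 7 higher when only the MONO and CO libraries entered the fit. By subunit 18 of 32 small subunit genes and 22 of 47 large subunit genes were lower, and 3 and 4 were higher, a split that the loess correction moved to 9 lower and 8 higher in the small subunit and 12 and 10 in the large. The decreases were small in most genes, and the count of higher genes was 2 without CO 1 and 3 without MONO 1, MONO 2 or CO 2.

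RPS26 (gene 6231, chr12:56041918-56044697), a small subunit protein that contacts the messenger RNA, had the largest decrease. Its RPMI8226 levels were 38.4 and 41.6 in MONO, 21.2 and 18.6 in TSW, and 14.7 and 14.98 in CO. Every TSW and CO value lay below both MONO values, and the log2 fold change in CO was -1.37 ± 0.0842 (SE, adjusted p 2.12e-07). In MM.1S RPS26 had 25.4, 20.9 and 20.9 in MONO, 17.5, 19.96 and 16.6 in TSW, and 17.03, 15.96 and 22.6 in CO, with CO overlapping MONO and an adjusted p of 0.151. RPL9, of the large subunit, had 17.8 and 18.3 in MONO, 13.2 and 11.98 in TSW, and 10.1 and 11.02 in CO in RPMI8226 and fell by 0.73 ± 0.0856 (SE, adjusted p 2.50e-05) without overlap of MONO and CO. RPL9 has 90.5% of its windows copied and RPS26 all of them, so both changes are uncertain.

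The genes that rose in CO did so by less. RPL12, a protein at the base of the stalk, had 261 and 271 in MONO, 415 and 430.1 in TSW, and 301 and 337 in CO in RPMI8226. It rose by 0.26 ± 0.0713 (SE, adjusted p 0.00760), with CO between MONO and TSW. RPL22 rose by 0.26 ± 0.0791 (SE, adjusted p 0.0136). The increase of RPL12 missed the threshold without MONO 1 (adjusted p 0.0734) or CO 2 (0.0848), and that of RPL22 without MONO 2 (0.0871) or CO 1 (0.129).

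CO against TSW in RPMI8226 called 17 of the 79 genes, 12 down and 5 up, beside 4.29% of all genes. At the adjusted p alone 34 were lower and 9 higher, beside 17.5% and 10.1%. Quantile normalization gave 29 and 22, the loess correction gave 26 and 22, and without CO 1 the counts were 20 and 5. The share called was above the background, and the comparison rests on the TSW pair that stood apart. RPS28 had -1.94 ± 0.0865 (SE, adjusted p 3.72e-07) and RPS27 1.79 ± 0.0762 (SE, adjusted p 3.11e-07), the mirror of TSW against MONO, with which it shares the TSW libraries. RPL21 at -1.30 had the next decrease, and RPL7 at 1.51 and RPL41 at 1.46 the next increases. In the 21 genes with under 20% copied windows 17 fell and 0 rose, with a median of -0.42, and after the loess correction 11 fell and 1 rose.

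The stalk proteins RPLP0, RPLP1 and RPLP2 recruit the factors that drive elongation. RPLP1 had 1971 and 2191 in MONO, 2894 and 3179 in TSW, and 1792 and 2053 in CO in RPMI8226. Both TSW values were above the rest, with 0.55 ± 0.0893 (SE, log2, adjusted p 0.000335) against MONO, and RPLP1 was also second highest in MM.1S MONO 2. RPLP0 had 753 and 793 in MONO, 761 and 848 in TSW, and 698 and 723 in CO, and its adjusted p was 0.512 in TSW and 0.159 in CO. RPLP2 had 906 and 1009.8 in MONO, 1059.9 and 1159 in TSW, and 839 and 905 in CO, with 0.21 ± 0.0795 (SE, adjusted p 0.0359) in TSW and an adjusted p of 0.154 in CO. The increase of RPLP2 missed the threshold after quantile normalization and without MONO 1 (adjusted p 0.313), TSW 2 (0.152) or CO 1 (0.0504). In MM.1S RPLP0 had 825, 639.7 and 632 in MONO, 591, 523 and 499.9 in TSW, and 444, 576 and 445 in CO, and RPLP2 had 1611, 1233 and 1108 in MONO, 1290.4, 1153 and 1066 in TSW, and 828, 1179 and 1339 in CO, with an adjusted p of 0.578 in TSW and 0.348 in CO.

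The rule includes 4 paralogs, of which RPL39L and RPS27L were expressed. RPL39L (gene 116832, chr3:187120948-187139496), a testis paralog of the tunnel protein RPL39, had no copied window. It had 37.7 and 35.4 in MONO, 30.9996 and 27.5 in TSW, and 18.3 and 16.3 in CO in RPMI8226. MONO, TSW and CO did not overlap, and the log2 fold change was -0.31 ± 0.0882 (SE, adjusted p 0.00951) in TSW and -1.04 ± 0.0882 (SE, adjusted p 2.18e-06) in CO. The change in TSW missed the threshold without MONO 1 (adjusted p 0.0764) or TSW 2 (0.0602). In MM.1S RPL39L had 62.8, 40.99 and 39.997 in MONO, 53.5, 54.4 and 49.8 in TSW, and 33.5, 43.02 and 45.7 in CO, with adjusted p-values of 0.501 and 0.351 against MONO. RPL39 itself was 70.6 and 60.6 in MONO, 84.3 and 44.6 in TSW, and 52.2 and 64.4 in CO in RPMI8226, with a gap between the TSW libraries and adjusted p-values of 0.741 and 0.515.

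RPS27L, a paralog of RPS27 that p53 induces, had 56.1 and 54.7 in MONO, 67.7 and 62.7 in TSW, and 41.05 and 50.6 in CO in RPMI8226. TSW was above MONO without passing the test (adjusted p 0.0528), and CO fell by 0.28 ± 0.0952 (SE, adjusted p 0.0235) without overlap. The decrease missed the threshold after quantile and median-of-ratios scaling and without MONO 1 (adjusted p 0.1003), MONO 2 (0.0641) or CO 1 (0.250). In MM.1S it had 109.9, 88.8 and 89.99 in MONO, 103, 101 and 98.2 in TSW, and 77.7, 92.3 and 95.1 in CO, with adjusted p-values of 0.654 and 0.422. The low values of RPS27 in MONO 2 and in the TSW pair were not seen in RPS27L. RPL3, the counterpart of RPL3L, had 912 and 908 in MONO, 881 and 979 in TSW, and 1060.4 and 1059.9 in CO in RPMI8226 and rose in CO by 0.22 ± 0.0696 (SE, adjusted p 0.0155), with every CO value above MONO. That increase missed the threshold without any 1 of the MONO and CO libraries, with adjusted p from 0.0600 to 0.0973. RPL10, the counterpart of RPL10L, had 107 and 115 in MONO, 136 and 146 in TSW, and 73.2 and 84.1 in CO, and fell in CO by 0.50 ± 0.0822 (SE, adjusted p 0.000306) without overlap.

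Some ribosomal proteins act outside the ribosome. RPL5 and RPL11 carry the 5S RNA and bind MDM2, the protein that degrades p53, when assembly is disturbed. RPL5 had 621 and 613 in MONO, 461 and 468 in TSW, and 493 and 503 in CO in RPMI8226, with MONO above both other conditions and log2 fold changes of -0.41 ± 0.0606 (SE, adjusted p 0.000167) in TSW and -0.31 ± 0.0606 (SE, adjusted p 0.000992) in CO. RPL11 had 1993 and 2025 in MONO, 2565 and 2748 in TSW, and 2173 and 2053 in CO and rose in TSW by 0.40 ± 0.0695 (SE, adjusted p 0.000485), while its adjusted p in CO was 0.369. RPL23, which also binds MDM2, had 1486 and 1503 in MONO, 1349 and 1419 in TSW, and 1084 and 1112 in CO and fell in CO by 0.44 ± 0.0643 (SE, adjusted p 0.000114), and RPL26, which binds p53 messenger RNA, had 301 and 312 in MONO, 265 and 276 in TSW, and 306 and 292 in CO and fell in TSW by 0.18 ± 0.0643 (SE, adjusted p 0.0283). The decrease of RPL26 missed the threshold after median-of-ratios scaling and without MONO 1 (adjusted p 0.0870), MONO 2 (0.196) or TSW 1 (0.0692). The partners RPL5 and RPL11 thus moved apart in RPMI8226 TSW, where libraries stood apart over these genes, and after quantile normalization RPL11 missed the threshold. In MM.1S none of these 4 genes passed against MONO, with adjusted p-values from 0.101 to 0.931.

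RPS6, the substrate of S6 kinase, had 1172 and 1196 in MONO, 1057 and 1128 in TSW, and 1153 and 1146 in CO in RPMI8226. Its groups differed by little, with adjusted p-values of 0.135 in TSW and 0.573 in CO, and in MM.1S of 0.225 and 0.257. RPS19, whose loss causes Diamond-Blackfan anemia, had 343 and 372 in MONO, 407 and 440.2 in TSW, and 243 and 279.6 in CO in RPMI8226. It rose in TSW by 0.24 ± 0.0828 (SE, adjusted p 0.0237) and fell in CO by 0.45 ± 0.0828 (SE, adjusted p 0.000613), with no overlap of the conditions. The increase missed the threshold after quantile normalization and without MONO 1 (adjusted p 0.183) or TSW 2 (0.115). RPS3, at the messenger RNA entry and also a DNA repair protein, fell in CO by 0.21 ± 0.0652 (SE, adjusted p 0.0127), which missed the threshold after median-of-ratios scaling and without MONO 2 (adjusted p 0.134) or CO 1 (0.0887). RPS27A, made as a fusion with ubiquitin, fell in CO by 0.38 ± 0.0926 (SE, adjusted p 0.00395), and its adjusted p was 0.0519 without CO 1. RPSA, which is also a laminin receptor, fell by 0.22 ± 0.0764 (SE, adjusted p 0.0243) in TSW and by 0.36 ± 0.0764 (SE, adjusted p 0.00163) in CO. The TSW decrease of RPSA missed the threshold after median-of-ratios scaling and without MONO 1 (adjusted p 0.144), MONO 2 (0.0684) or TSW 1 (0.116).

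Ribosomal proteins that the symbol rule misses include FAU, made as a fusion, and RACK1, both of the small subunit. In MM.1S neither passed the limma threshold, or an unadjusted p of 0.05, in any comparison. In RPMI8226 RACK1 rose in TSW by 0.21 (adjusted p 0.0170), and FAU fell in CO by 0.50 (adjusted p 0.000293). Of the paralogs outside the rule, RPL7L1 rose in MM.1S by 0.44 in TSW and 0.44 in CO (adjusted p 0.00714 and 0.00674) and had -0.95 and -0.78 in RPMI8226. RPL22L1 had -0.68 and -1.15 and RPL26L1 -0.69 and -0.76 in RPMI8226, all at an adjusted p under 0.05. RPL36AL rose in RPMI8226 TSW by 0.22 (adjusted p 0.0223), and RPL26L1 fell in MM.1S CO by 0.50 (adjusted p 0.0289). Whether the lines differ in these genes was not tested.

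Lists of other genes that make or serve ribosomes were read in the same fits, first in RPMI8226. Of 47 genes of ribosome assembly, 44 were lower and 1 was higher in TSW and 45 were lower and 0 higher in CO against MONO, with medians of -0.83 and -1.18 and the same sign under each scaling. Of the 76 mitochondrial ribosomal protein genes, 67 and 71 were lower and 2 and 1 higher, with medians of -0.48 and -0.79 that kept their sign. Of 33 genes tested from the list of translation factors, 18 and 17 were lower and 6 and 6 higher, also with medians below 0 under each scaling. In MM.1S the ribosome assembly genes had 14 lower and 0 higher in TSW and 16 and 1 in CO, the mitochondrial ribosomal protein genes 6 and 4, then 13 and 3, and the translation factors 4 and 0, then 5 and 2. Of all genes tested in MM.1S 12.9% were lower and 14.4% higher in TSW, and 15.0% and 16.2% in CO, so that the 7.89% of the mitochondrial list that were lower in TSW were under that share. In RPMI8226 38.0% of all genes were lower and 29.0% higher in TSW, and 41.7% and 30.3% in CO. The median of the translation factors in MM.1S CO was -0.14 and turned to 0.01 after quantile normalization. Whether these lists differ from the ribosomal protein genes was not tested. NPM1, a nucleolar protein of assembly, averaged 475 in RPMI8226 MONO, 154 in TSW and 181 in CO, a log2 fold change of -1.62 and -1.39 (adjusted p 3.77e-08 and 7.40e-08). MYC, which drives ribosome synthesis, averaged 384 in MONO, 159 in TSW and 132 in CO, with -1.27 and -1.53 (adjusted p 9.92e-08 and 2.05e-08). NPM1 and MYC were chosen after their values were seen.

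Markers of the cell types were read from the same tables. All 10 plasma cell markers were above 0 in every library, with a summed RPKM from 1021 to 1999, led by MZB1 or XBP1. An RPKM of 1 was reached by 9 of them in each MM.1S library and by 8 in each RPMI8226 library. FCRL5 was at most 0.219 in MM.1S and 0.070 in RPMI8226, and SLAMF7 ran from 0.018 to 0.104 in RPMI8226. Of 4 other B cell markers MS4A1 was at 0 throughout, and PAX5 was at most 0.659. Of 42 stromal markers 22, 27 and 23 were above 0 in MM.1S MONO, 22, 24 and 23 in TSW, and 39, 39 and 41 in CO. In RPMI8226 21 and 22 were above 0 in MONO, 21 and 21 in TSW, and 39 and 39 in CO. Their summed RPKM was 709, 560.3 and 464 in MM.1S MONO, 495, 470.0 and 471 in TSW, and 569.8, 714 and 604 in CO, led by LGALS1 at 266 to 564. In RPMI8226 it was 4561 and 4905 in MONO, 2591 and 2960.3 in TSW, and 2872 and 3212 in CO, led by FN1 at 1678 to 4309.9. COL1A2, a collagen of stromal cells, was at 0 in every MONO and TSW library, at 10.8, 13.4 and 10.2 in MM.1S CO, and at 4.05 and 5.85 in RPMI8226 CO. POSTN was at 0 in both lines, and COL6A3 and TIMP3 in RPMI8226. The study reports that few HS5 cells remained among those sorted from the lower chamber. Their RNA also carries ribosomal protein transcripts, and its part in the CO values was not tested.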

How the data were processed

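RNA of sorted MM.1S and RPMI8226 cells was sequenced after KAPA mRNA HyperPrep library preparation. The authors aligned the reads to hg38 with Subread and counted them with featureCounts. The labels give no version for either, the study's methods name the Subread release, and neither gives a strand setting or the treatment of reads that match several places. The deposited values are log2 of RPKM + 1 with an offset of 0.0001, and the tables hold 20468 RefSeq genes in 9 MM.1S and 6 RPMI8226 libraries. The spacing of the values gave back the pair-end tags: of 17662 genes with a tag all were solved, and 2806 had no tag. Recovered values lay within 0.05 of a whole number, in part by construction, and in 1635 genes with tags in under 4 libraries the solution rests on few values. As a check, the tags on all genes summed to 99.9983% to 99.9993% of the library size used.

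Each line was fitted on its own with limma 3.58.1 in R 4.3.3 (lmFit, contrasts.fit and eBayes with a trend) on log2(RPKM + 1), over genes that averaged an RPKM of 1 or more, with the 3 conditions in 1 fit and no block. P-values were adjusted by Benjamini-Hochberg within each comparison over all genes tested. The fit was tested on simulated data. The members and the lists of other genes were chosen with earlier results of these data known. Genes were named by a rule: in each comparison the 3 largest increases and decreases past the adjusted p, the 3 most abundant in each line, paralogs with their counterparts, stalk proteins, members with a known role outside the ribosome or in disease, and the 5 with the largest pseudogene share. Alternatives were a pseudocount of 0.1, no filter or a minimum mean of 5, median-of-ratios and quantile scaling, totals without the members, a replicate block, 2 conditions in a fit, no fold threshold, no trend, voom on the tags, summed gene and pseudogene tags, and leaving out each library. A loess correction (span 0.5) for GC content and length, and a restriction to members with under 20% copied windows, were chosen after seeing the data. Copied windows and sequences were read from GRCh38 and RefSeq, with GENCODE 44, in Python 3.11.15 with numpy 2.4.6, pandas 2.3.3, scipy 1.17.1, biopython 1.88 and numba 0.67.0, and figures used matplotlib 3.10.9. Intervals are 95% Wilson intervals, and a count of 0 was taken to allow 3 tags. Intervals and floors cover counting error only.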

Additional observations from a re-analysis of the deposited data

Results flagged for a closer look

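The 37 genes named by rule were searched in 3 comparisons for conditions without overlap and with opposite directions in the lines. In 6 results every TSW or CO library lay below every MONO library in MM.1S and above every MONO library in RPMI8226, 4 in TSW against MONO and 2 in CO against MONO. The same held for 4.03% and 3.59% of the 9397 genes tested in both lines, and for 6 and 2 of the 79 ribosomal protein genes. The reverse held for 5.57% and 5.38% of all genes and for 0 of the 79. The values are log2 fold changes. RPL28 had -0.45 in MM.1S and 0.38 in RPMI8226 in TSW against MONO and -0.60 and 0.10 in CO against MONO. RPL37 had -0.45 and 0.26 in TSW against MONO, RPS14 had -0.29 and 0.11, and RPS3 had -0.34 and 0.13. RPL11 in CO against MONO had -0.36 and 0.072. The difference between the lines was not tested for any of them, and the lines differ in their number of libraries. MM.1S MONO 1 was high and the RPMI8226 TSW pair stood apart over these genes, and the part of these libraries in the 6 results was not tested.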

How the results depend on the processing

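Single changes were followed for 148 member changes that passed the adjusted p. Over all settings 2402 kept the direction and an adjusted p under 0.05, 280 kept the direction only and 7 reversed, and no fold change threshold was applied here. With the scaling to totals without the members, the pseudocount of 0.1 or the replicate block, all 148 kept their direction and an adjusted p under 0.05.

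In MM.1S TSW against MONO, 1 gene was called with a pseudocount of 0.1, 1 after quantile normalization, 1 with gene and pseudogene tags summed, 1 after the loess correction and 2 with no fold change threshold. The count of lower genes was 0 without the filter, 0 with only the 2 conditions fitted, 2 after quantile normalization, 2 with summed tags and 3 after the loess correction. The count of higher genes was 2 after the loess correction and 0 among genes with few copied windows. With the replicate block, 2 genes were lower. In MM.1S libraries of the same number had correlations of -0.380 to 0.286, while MONO 1 correlated best with CO 2 (0.288) and TSW 1 with CO 2 (0.442). The numbers thus showed no pairing, but correlations of so few libraries cannot settle it. By the methods, MM cells sat above and below the membrane of a transwell together, so TSW and CO cultures may share wells. In RPMI8226 libraries of the same number had correlations of 0.164 to 0.271 with fewer than 3 pairs a comparison, and pairing could not be settled.

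In MM.1S CO against MONO, 1 gene was called without the filter, 1 after quantile normalization, 1 with only the 2 conditions fitted, 1 among genes with few copied windows, 2 after the loess correction and 7 with no fold change threshold. The count of lower genes was 2 without the filter, 0 with only the 2 conditions fitted, 10 after the loess correction and 3 among genes with few copied windows. The count of higher genes was 2 after quantile normalization and 0 among genes with few copied windows, and the median was -0.041 after quantile normalization.

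Leaving out 1 MM.1S library at a time gave, in TSW against MONO, 0 to 4 called, 0 to 8 lower, 0 to 2 higher and a median from -0.29 to 0.015. In CO against MONO it gave 1 to 11 called, 0 to 17 lower, 1 to 2 higher and a median from -0.36 to -0.070. The highest counts came without MONO 3.

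With no fold change threshold, RPMI8226 had 49 called in TSW against MONO, 47 in CO against MONO and 43 in CO against TSW. Median-of-ratios scaling gave 13 higher in CO against MONO. Quantile normalization gave a median of -0.13 in TSW against MONO and 22 higher in CO against TSW. The loess correction gave 21 lower, 18 higher and a median of -0.0028 in CO against MONO, and 10 called and 22 higher in CO against TSW. Among genes with few copied windows TSW against MONO had 0 called, 1 lower, 11 higher and a median of 0.23. Among the same genes CO against MONO had 1 called, 12 lower and 1 higher, and CO against TSW had 6 called, 17 lower, 0 higher and a median of -0.42. That restriction tests 21 genes in place of 79, which by itself lowers counts. Leaving out 1 RPMI8226 library, where the lone sample is assumed to vary like the other groups, gave 15 to 27 lower in TSW against MONO, 2 to 7 higher in CO against MONO, and 20 to 36 lower and 5 to 10 higher in CO against TSW.

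The reversed log2 fold changes were all in RPMI8226. With summed tags RPL13A had -0.11 in TSW against MONO and 0.082 in CO against TSW, where most tags of the sum come from pseudogenes. After the loess correction CO against MONO had 0.10 for RPS15, 0.026 for RPL29, 0.024 for RPL18 and 0.13 for RPL8, and CO against TSW had 0.075 for RPL8. The loess correction and the restriction to few copied windows were chosen after seeing the data. For the changes with other settings the cause was not tested. At these depths the members limited by counts are RPL3L and RPL10L.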
